A study of Homo sapiens with 24 samples.

Results

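What separated silymarin from its solvent was examined in the 14 of 24 arrays in which the stress gene DDIT4 was low, 6 labelled silymarin and 8 labelled DMSO. These arrays were selected on their DDIT4 values, by a level below 9.0 on the log2 scale, and the selection used no other gene. The study exposed the human hepatoma line Huh7.5.1, in which hepatitis C virus can be grown, to silymarin, an extract of milk thistle, or to the solvent DMSO alone, and measured RNA on Affymetrix Human Gene 1.0 ST arrays. All titles carry the word novirus. The 14 arrays comprised 2 of 4 DMSO and 3 of 4 silymarin arrays at 4 h, 2 of 5 and 1 of 3 at 8 h, and 4 of 5 and 2 of 3 at 24 h. The dose of silymarin was not stated. The labels do not say that replicates were separate cultures, so p-values measure the spread between these samples. Precision is limited by the small number of arrays.

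DDIT4 encodes an inhibitor of the growth kinase complex mTORC1 and is switched on by energy shortage, hypoxia, glucocorticoids and protein folding stress. Cells that lack amino acids or carry misfolded proteins activate ATF4, which induces amino acid transporters and synthetases, while the unfolded protein response of the endoplasmic reticulum induces chaperones through ATF6 and XBP1. Silymarin is a mixture of flavonolignans that is taken for liver complaints and has been studied as an inhibitor of inflammation and of hepatitis C virus infection.

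DDIT4 lay between 7.60 and 8.35 in the 6 silymarin arrays and between 7.50 and 8.28 in the 8 DMSO arrays. The array just inside the limit was silymarin replicate 3 at 24 h, at 8.35, and the one just outside was DMSO replicate 1 at 8 h, at 9.67. No array lay between these levels, and the 10 high arrays (4 silymarin, 6 DMSO) reached 10.34. Within the low arrays the label difference of DDIT4 was 0.16, which is given as a description because the gene chose the arrays. The ranges of the labels overlapped almost entirely.

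**Figure D1:**
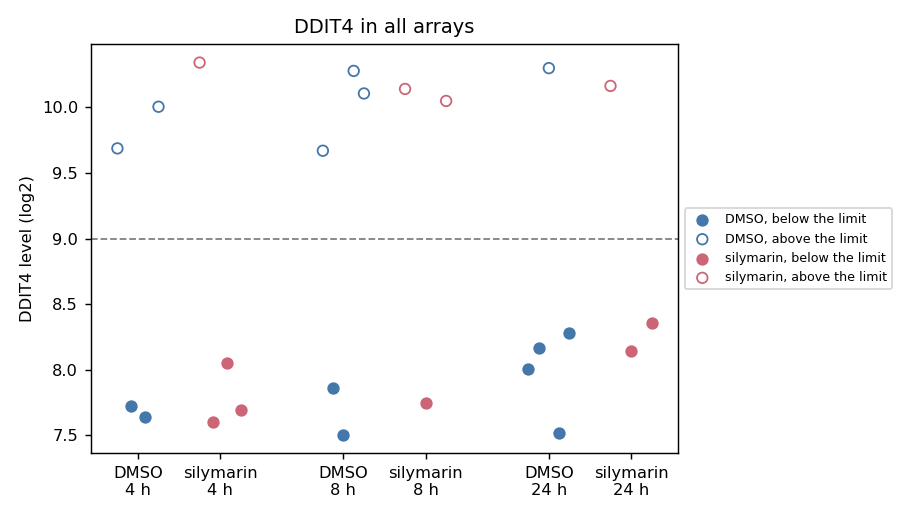
DDIT4 level (log2) in each of the 24 arrays, by label and time point, with the limit of 9.0 as a dashed line; filled points are the 14 low arrays and open points the 10 high arrays. The low arrays of both labels lie between 7.50 and 8.35, and the high arrays at 9.67 or above.

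Hepatocyte genes were high in the low arrays, as the label of a hepatoma line states. All 7 measured hepatocyte markers, among them albumin, alpha-fetoprotein and apolipoprotein B, stood above the median gene of 7.90, with means from 9.76 to 13.31. Of the markers of other cells, 0 of 4 endothelial, 0 of 4 stellate cell and 0 of 3 lymphocyte genes did so, while 1 of 4 macrophage genes (CD68) did and 2 of 4 cholangiocyte genes (EPCAM and SOX9). The mean of the hepatocyte markers ran from 12.00 to 12.04 in silymarin and from 11.96 to 12.07 in DMSO. In such bulk RNA, fewer cells of a type and less RNA per cell cannot be told apart. Over all 28869 probe sets, rather than the genes tested, the median of a low array lay between 7.06 and 7.18.

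No gene passed the test between the labels in the low arrays. limma, with time point as a covariate, called 0 of 18274 genes (0%) at an adjusted p under 0.05, and the smallest adjusted p was 0.951. At an unadjusted p under 0.05 there were 869 genes, fewer than the 913.7 that make up 5% of those tested. Of these, 512 (2.8% of all genes) had the higher mean in silymarin and 357 (1.95%) the lower. The contrast at each time point also called 0 genes (0%), with 406 at 4 h, 441 at 8 h and 953 at 24 h below an unadjusted p of 0.05. The only silymarin array at 8 h was assumed to vary like the other groups. An F test of whether the label difference changed between time points called 0 genes (0%) too, with 405 below an unadjusted p of 0.05.

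The pooled fit gave a narrow bound for most genes, with the label difference taken as the same at 4, 8 and 24 h. Differences at a single time point rest on fewer arrays and are bounded less tightly. The median 95% confidence interval reached 0.125 to either side of the estimate, which is 1.09-fold. For 18098 genes (99.0%) the interval lay within 0.5 of 0 on the log2 scale, a change of 1.41-fold, and for 18268 genes it lay within 1. Only 6 genes differed by 0.5 or more: SLC6A14, SLCO1B3, KRT23, IL18, CCDC198 and AADAC, all with the higher mean in silymarin. The most negative difference, -0.41 (SE 0.20), belonged to the spliceosomal RNA gene RNU5A-1, and its interval ran from -0.83 to 0.01. It was 0.19 at 8 h, and -0.25 over all time points without silymarin replicate 2 at 24 h.

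Over all genes the label took 7.29% of the variation among the 14 arrays, and its share of the degrees of freedom, 1 of 13, is 7.69%. Time point took 23.1%, and 69.6% remained after time point and label, which includes any change of the label difference between time points. Arrays of the same label and time point differed by a median of 0.188 (root mean square over genes, log2, 12 pairs), and arrays of different label at the same time point by 0.182 (16 pairs). The nearest array carried the same label for 7 of 14 arrays. By distance between whole profiles, the low arrays were not sorted by label.

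In 47 genes (0.257%) every silymarin array exceeded every DMSO array of its time point at 4, 8 and 24 h, and in 27 genes (0.148%) every silymarin array was below them. These counts describe the 14 arrays, and nothing is read from them about a gene. They depend on how many arrays must agree, and the total of 74 genes became 90 to 445 when 1 array was left out. EDEM1, MANF, SRPRB and RRP12 were among the higher genes and NEK2 among the lower. The genes below were named by size, by unadjusted p, by membership of a list, by lack of overlap or in an earlier account. For each, limma's adjusted p was at least 0.951.

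Endoplasmic reticulum (ER) chaperones were listed together with factors that degrade misfolded proteins. All 23 measured members had the higher mean in silymarin, against 49.9% of all genes, with a median difference of 0.13 against 0.00. Limma called 0 of them, and 11 had an unadjusted p under 0.05 in this direction, beside 2.8% of all genes. The medians were 0.12 at 4 h, 0.15 at 8 h and 0.07 at 24 h. Without silymarin replicate 2 at 8 h, 3 members rather than 11 were below an unadjusted p of 0.05. Members of a list vary together, so such counts are not independent observations.

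EDEM1, which hands misfolded glycoproteins over for degradation, was 9.61, 9.64 and 9.53 in the silymarin arrays at 4 h, 9.64 at 8 h, and 9.49 and 9.71 at 24 h. In DMSO it was 9.43 and 9.43 at 4 h, 9.27 and 9.09 at 8 h, and 9.47, 9.48, 9.44 and 9.36 at 24 h. The labels did not overlap at any time point, although at 24 h the lowest silymarin array, at 9.49, barely exceeded the highest DMSO array, at 9.48. The mean difference was 0.22 (SE 0.06, 95% confidence interval 0.10 to 0.35), or 1.17-fold. Without silymarin replicate 2 at 8 h it was 0.16.

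MANF, a protein kept in the endoplasmic reticulum and secreted under stress, was 10.78, 10.82 and 10.72 in silymarin at 4 h, 10.75 at 8 h, and 10.95 and 10.87 at 24 h. The DMSO arrays were 10.56 and 10.68 at 4 h, 10.59 and 10.51 at 8 h, and 10.81, 10.86, 10.69 and 10.70 at 24 h. Its difference of 0.16 (SE 0.04) was close to even over the time points, at 0.15, 0.20 and 0.15. SRPRB, outside the list, is a subunit of the receptor that docks ribosomes at the endoplasmic reticulum, and differed by 0.18 (SE 0.05), again without overlap. Its silymarin arrays ran from 10.94 to 11.11 around a median of 11.05, and its DMSO arrays from 10.77 to 10.99 around 10.85.

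The other members described here differed by 0.11 to 0.20. HSPA5, the main luminal chaperone BiP, differed by 0.14 (SE 0.06). HYOU1, another luminal chaperone, differed by 0.18 (SE 0.07), and DNAJC3, a co-chaperone of HSPA5, by 0.20 (SE 0.07). XBP1, the transcription factor of the unfolded protein response, differed by 0.11 (SE 0.04), and SDF2L1, a component of the chaperone complex, by 0.17 (SE 0.06). In the 10 high arrays, 12 of the 23 members had the higher mean in silymarin and the median was 0.00.

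The promoters of this list are shown because its members differed in one direction. Windows from 250 bases before to 50 after the start site came from RefSeq (GRCh38.p14), for 22 of the 23 members, and both strands were searched. The ER stress element ERSE, which is CCAAT and CCACG with 9 bases of any kind between them, was found in 6 of 22 members (27.3%), CALR, CANX, CRELD2, HSP90B1, HSPA5 and XBP1, and in 0.120% of 14122 promoters of measured genes. The related ERSE-II, which is ATTGG and CCACG with 1 base between them, was found in 3 of 22 (13.6%), HERPUD1, HYOU1 and SDF2L1, and in 0.0921% of all promoters. None of these 22 windows held both motifs. A match is a description of the sequence, and these shares would be the same whatever the label differences of the members. XBP1 lies on the minus strand at chr22:28800520-28800819 and SDF2L1 on the plus strand at chr22:21642052-21642351. Capitals mark ERSE in XBP1 and ERSE-II, read on the opposite strand, in SDF2L1.
XBP1: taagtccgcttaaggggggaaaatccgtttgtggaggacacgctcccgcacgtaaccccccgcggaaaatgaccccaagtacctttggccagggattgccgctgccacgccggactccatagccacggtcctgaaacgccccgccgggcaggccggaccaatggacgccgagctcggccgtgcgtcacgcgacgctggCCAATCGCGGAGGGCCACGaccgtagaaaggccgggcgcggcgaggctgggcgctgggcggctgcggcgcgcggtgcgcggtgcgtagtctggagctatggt
SDF2L1: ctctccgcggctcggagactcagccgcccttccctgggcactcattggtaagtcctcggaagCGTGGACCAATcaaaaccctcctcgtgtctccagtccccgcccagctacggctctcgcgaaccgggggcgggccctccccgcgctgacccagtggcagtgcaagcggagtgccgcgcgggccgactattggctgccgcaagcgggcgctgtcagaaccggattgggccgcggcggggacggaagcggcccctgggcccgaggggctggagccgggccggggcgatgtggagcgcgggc

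ATF4 targets leaned the same way. Of 39 measured members 36 had the higher mean in silymarin, the median difference was 0.11, and 13 had an unadjusted p under 0.05 in this direction, while limma called 0. The medians were 0.09, 0.11 and 0.13 at 4, 8 and 24 h, and 26 members (66.7%) were above 0 at all 3 time points, as were 13.3% of all genes. Without silymarin replicate 3 at 24 h, the array with the highest DDIT4, 0 members were below an unadjusted p of 0.05 and the median stayed between 0.09 and 0.12 whichever array was left out. With the DDIT4 level itself as a covariate the median was 0.08. In the high arrays 17 of 39 members were above 0, with a median of -0.03.

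STC2, a secreted stress glycoprotein, is an example from this list. It was 8.53, 8.81 and 8.40 in silymarin at 4 h against 8.32 and 8.28 in DMSO, 8.37 against 8.46 and 8.06 at 8 h, and 8.67 and 8.95 against 8.19, 8.79, 8.12 and 8.45 at 24 h. The labels were apart at 4 h and overlapped later, and the difference was 0.30 (SE 0.11). The mitochondrial folate enzymes MTHFD2 and ALDH1L2 differed by 0.26 (SE 0.10) and 0.41 (SE 0.16). Among amino acid transporters, the glycine carrier SLC6A9 differed by 0.32 (SE 0.12), the cystine carrier SLC7A11 by 0.31 (SE 0.14) and its partner chain SLC3A2 by 0.12 (SE 0.05).

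TRIB3, a pseudokinase that dampens ATF4, ranged from 8.58 to 8.99 in silymarin and from 8.33 to 8.91 in DMSO, a difference of 0.17 (SE 0.09) with wide overlap. ASNS, asparagine synthetase, differed by 0.21 (SE 0.10), and SLC7A5, the large neutral amino acid carrier, by 0.19 (SE 0.09). Leaving out silymarin replicate 3 at 24 h brought SLC7A5 to 0.13. CARS1, the cysteinyl-tRNA synthetase, differed by 0.18 (SE 0.07). CHAC1, which degrades glutathione, had an interval from -0.11 to 0.56 and was not resolved.

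**Figure D2:**
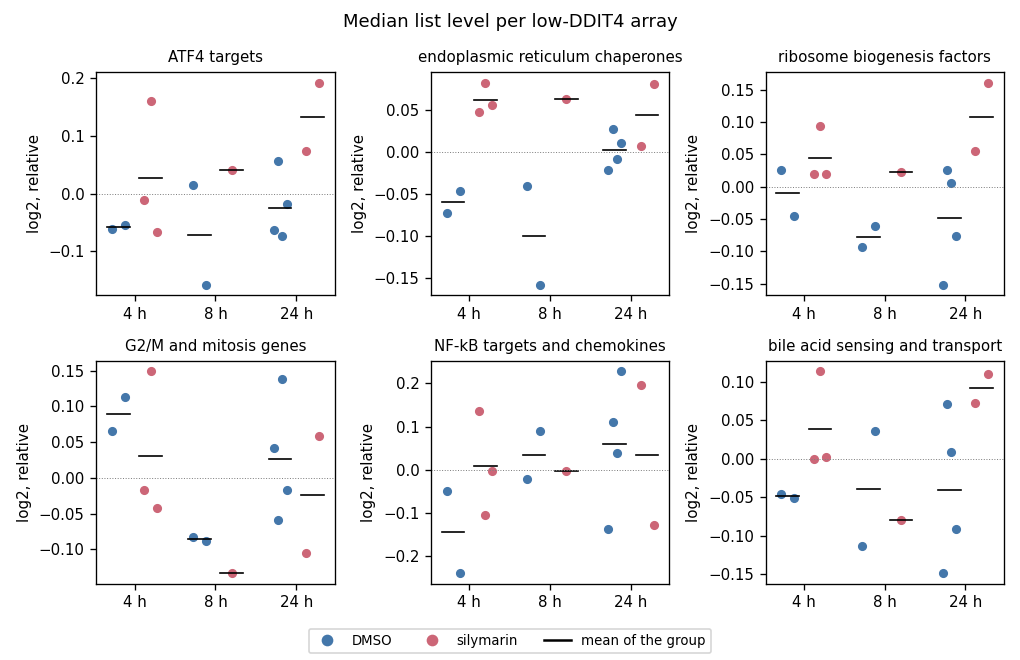
Median level of the measured members of 6 gene lists in each low array (log2, each gene set to 0 at its mean over the 14 arrays), by time point and label, with group means as bars. ER chaperones are higher in silymarin at 4 and 8 h and overlap at 24 h, while the NF-kB list overlaps at every time point and the mitosis list at 4 and 24 h.

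Ribosome biogenesis factors, which process ribosomal RNA in the nucleolus, were the other list with every member on one side. All 21 had the higher mean in silymarin, with a median of 0.11, and 9 had an unadjusted p under 0.05. Without silymarin replicate 3 at 24 h this count was 0 and the median was 0.09. RRP12, which exports ribosomal subunits, was 9.81, 9.92 and 9.81 in silymarin at 4 h, 9.82 at 8 h, and 9.89 and 9.95 at 24 h. Its DMSO arrays were 9.75 and 9.72, then 9.74 and 9.79, then 9.61, 9.87, 9.71 and 9.71. The labels did not overlap at any time point and differed by 0.13 (SE 0.05). DKC1, the pseudouridine synthase dyskerin, differed by 0.17 (SE 0.06), NOP16 by 0.15 (SE 0.06) and the RNA methyltransferase NOP2 by 0.12 (SE 0.05).

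MYC, the transcription factor that drives ribosome synthesis, differed by 0.22 (SE 0.09). It ran from 10.19 to 10.67 in silymarin around a median of 10.41, and from 9.83 to 10.39 in DMSO around 10.25, so the labels overlapped. The E-box that MYC binds, CACGTG, was searched on both strands in the promoters of this list. It was found in 7 of 16 members with a promoter window (43.8%), BYSL, FBL, NOP2, PES1, RRP9, UTP20 and WDR43, and in 8.85% of 14122 promoters. A role of MYC in the label difference of this list was not tested. For the ATF4 composite element CARE only the form TGATGNAAT was searched, so sites with another last base were not counted. This form was found in 1 of 32 ATF4 targets (3.13%), FGF21, and in 0.630% of all promoters. NOP2 is shown as an example, on the minus strand at chr12:6568242-6568541 of GRCh38.p14, with the E-box in capitals.
NOP2: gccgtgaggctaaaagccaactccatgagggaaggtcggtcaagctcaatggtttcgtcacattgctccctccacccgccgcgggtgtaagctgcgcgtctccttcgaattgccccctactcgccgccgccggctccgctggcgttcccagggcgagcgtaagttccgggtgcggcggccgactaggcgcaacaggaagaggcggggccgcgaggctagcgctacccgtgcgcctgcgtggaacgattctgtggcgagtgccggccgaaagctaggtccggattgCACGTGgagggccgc

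The 2 largest differences belonged to membrane transporters. SLC6A14, a carrier of neutral and cationic amino acids, was 9.37, 9.66 and 8.39 in silymarin at 4 h, 8.75 at 8 h, and 9.16 and 10.28 at 24 h. DMSO arrays were 8.59 and 8.34 at 4 h, 8.60 and 8.64 at 8 h, and 7.01, 8.65, 9.01 and 8.57 at 24 h. Silymarin replicate 4 at 4 h lay among the DMSO arrays, and DMSO replicate 1 at 24 h lay far below all others. The difference was 0.87 (SE 0.31), or 1.83-fold with an interval from 1.16 to 2.88, and it was 0.13 at 8 h and 1.41 at 24 h. It ran from 0.59 to 1.06 when each array was left out in turn, and in the high arrays it was 0.74 (SE 0.48). There DMSO replicates 1 at 4 h, 1 at 8 h and 4 at 8 h were at 6.35, 6.07 and 5.32, and the other high arrays at 7.75 to 8.54. With a DDIT4 limit of 8.0, which left 8 arrays and no silymarin array at 24 h, the SLC6A14 difference was 0.30.

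SLCO1B3, which takes bile acids and drugs into hepatocytes, differed by 0.68 (SE 0.18), or 1.60-fold. It was 9.51, 9.83 and 9.08 in silymarin at 4 h, 9.003 at 8 h, and 9.02 and 10.06 at 24 h. In DMSO it was 9.15 and 8.74, then 8.27 and 8.92, then 8.45, 9.08, 8.52 and 8.32. Silymarin exceeded both DMSO arrays at 8 h, and at 4 and 24 h 1 silymarin array fell below the highest DMSO array. In the high arrays the difference had the other sign, -0.29 (SE 0.24). The change between the low and high arrays was 0.97 (SE 0.31), and limma's adjusted p for it was 0.946. With a DDIT4 limit of 8.0, again without a silymarin array at 24 h, the difference in the low arrays was 0.37.

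Of 16 measured genes of bile acid sensing and transport, 13 had the higher mean in silymarin, with a median of 0.09, and 4 had an unadjusted p under 0.05 (2 without silymarin replicate 2 at 24 h), while at 8 h the median was -0.01. SLC51B, a subunit of the bile acid exporter, differed by 0.45 (SE 0.16), and by 0.29 without silymarin replicate 3 at 24 h. The related importer SLCO1B1 differed by 0.32 (SE 0.13) and the canalicular export pump ABCB11 by 0.17 (SE 0.06), both at levels below the median gene. NR0B2, the receptor SHP that responds to bile acids, differed by 0.43 (SE 0.24), with -0.40 at 8 h and 0.89 at 24 h. In the high arrays 6 of 16 members were above 0, with a median of -0.02.

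Other hepatocyte products were mixed. AADAC, an esterase of the endoplasmic reticulum, differed by 0.51 (SE 0.17), and its silymarin arrays ran from 8.73 to 9.73 against 8.11 to 9.18 in DMSO. Its difference in the high arrays was 0.70 (SE 0.26). There DMSO replicates 1 at 4 h, 1 at 8 h and 4 at 8 h were at 7.85, 7.61 and 7.10. The other high DMSO arrays ran from 7.96 to 8.74. SERPINA7, the carrier of thyroxine, differed by 0.39 (SE 0.11) and the complement component C8A by 0.30 (SE 0.08), both without overlap at any time point. Their differences in the high arrays were 0.38 (SE 0.23) and 0.27 (SE 0.19). In the same high DMSO arrays that were low for AADAC, SERPINA7 was at 6.73, 6.71 and 6.62, and C8A at 6.84, 6.47 and 6.57. In the other high DMSO arrays SERPINA7 ran from 7.01 to 7.85 and C8A from 7.04 to 7.73. HAL, which breaks down histidine, was low at 6.39 and differed by 0.29 (SE 0.06), without overlap at any time point. The cell adhesion gene TENM2 differed by 0.46 (SE 0.11), also without overlap. SERPINA7, C8A, HAL and TENM2 were named because their labels did not overlap, so the lack of overlap is not a result about them. Of 24 hepatocyte secreted proteins and lineage factors, 12 were above 0, with a median of 0.00.

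**Figure D3:**
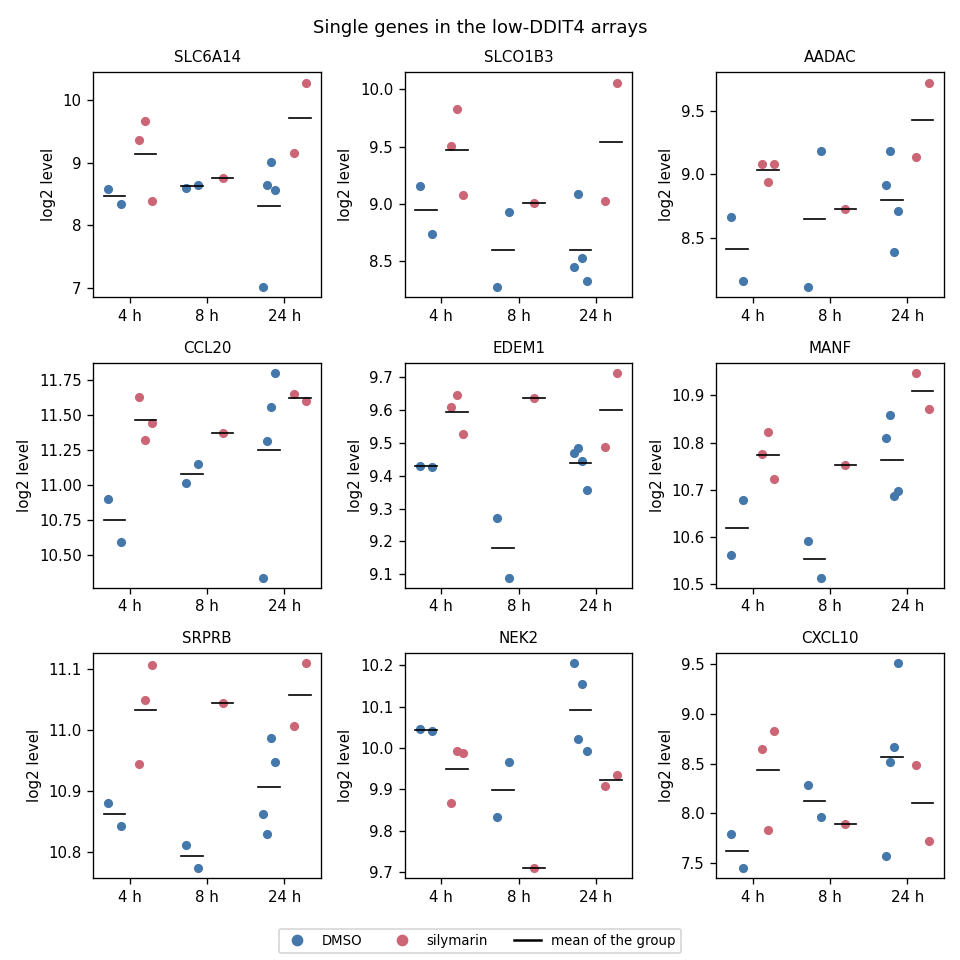
Level (log2) of 9 genes in each of the 14 low arrays, by time point and label, with group means as bars and a separate vertical range for each gene. EDEM1, MANF, SRPRB and NEK2 do not overlap between labels at any time point, SLC6A14, SLCO1B3, AADAC and CCL20 overlap at some, and CXCL10 lies higher in silymarin at 4 h only.

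Inflammatory genes did not keep a direction in the low arrays. Of 34 measured NF-kB targets and chemokines, 21 had the higher mean in silymarin, with a median of 0.04, and 2 were higher and 1 lower at an unadjusted p under 0.05. The median was 0.16 at 4 h, -0.05 at 8 h and -0.03 at 24 h. Without DMSO replicate 3 at 4 h it was -0.01, and without silymarin replicate 3 at 24 h it was 0.11. In the high arrays, which share no array with these but were normalized together with them, 30 of 34 were above 0 and the median was 0.30. How far this median rests on single high arrays was not tested. The median change from high to low arrays was -0.23, and limma called 0 genes of all 18274 (0%) for this change, with 871 at an unadjusted p under 0.05.

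CXCL10, a chemokine for T cells, was 8.65, 7.84 and 8.83 in silymarin at 4 h against 7.79 and 7.45 in DMSO. It was 7.90 against 8.28 and 7.96 at 8 h, and 8.48 and 7.73 against 7.57, 8.51, 8.66 and 9.51 at 24 h. Silymarin was thus above DMSO at 4 h, below it at 8 h and within its range at 24 h. The pooled difference was 0.07 (SE 0.28, 95% confidence interval -0.53 to 0.67), beside 1.17 (SE 0.43) in the high arrays, a change of -1.10 (SE 0.56, limma's adjusted p at least 0.946). In the high arrays, DMSO replicates 1 at 4 h, 1 at 8 h and 4 at 8 h were at 5.87, 5.11 and 4.57. The other high DMSO arrays ran from 6.07 to 7.50, and the high silymarin arrays from 6.37 to 7.98. In the low arrays the pooled sign of CXCL10 turned when any of 5 arrays was left out.

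CCL20, which attracts lymphocytes and dendritic cells, kept its sign throughout. It was 11.62, 11.32 and 11.44 in silymarin at 4 h, 11.37 at 8 h, and 11.65 and 11.60 at 24 h. The DMSO arrays were 10.90 and 10.59, then 11.01 and 11.15, then 10.34, 11.31, 11.55 and 11.80. The labels were apart at 4 and 8 h and overlapped at 24 h, with a pooled difference of 0.48 (SE 0.17) and 0.95 (SE 0.29) in the high arrays. The neutrophil chemokine CXCL8 differed by 0.24 (SE 0.22), with 0.76 at 4 h and -0.26 at 8 h, and by -0.071 without 4 h. Over single arrays left out it ran from 0.012 (DMSO replicate 3 at 4 h) to 0.41 (silymarin replicate 3 at 24 h). IL18, an interleukin activated by inflammasomes, differed by 0.58 (SE 0.34) and the epithelial keratin KRT23 by 0.62 (SE 0.32). Both intervals included 0, and silymarin replicates 4 at 4 h and 2 at 8 h lay below or among the DMSO arrays for both. Without silymarin replicate 3 at 24 h, IL18 was at 0.28 and KRT23 at 0.39. With a DDIT4 limit of 8.0, which left no silymarin array at 24 h, they were at -0.14 and -0.039. Their differences at 24 h were 1.22 and 1.16. Of the remaining inflammatory lists, 14 of 26 interferon-stimulated genes were above 0 (median 0.00), as were 12 of 22 acute phase and complement genes (median 0.04). The acute phase protein HP differed by 0.15 (SE 0.21) here and by 0.87 (SE 0.30) in the high arrays, and without 4 h its difference was -0.078. It was 0.028 without silymarin replicate 4 at 4 h, but 0.26 without DMSO replicate 5 at 24 h.

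Of 29 mitosis genes 3 were above 0, with a median of -0.05 (-0.03 without silymarin replicate 2 at 24 h), and 1 had an unadjusted p under 0.05. In the high arrays 0 of 29 were above 0, with a median of -0.10, so this list lay on the same side in both sets of arrays. NEK2, a centrosome kinase, was 9.87, 9.99 and 9.99 in silymarin at 4 h, 9.71 at 8 h, and 9.91 and 9.94 at 24 h. In DMSO it was 10.05 and 10.04, then 9.83 and 9.97, then 10.20, 10.02, 10.15 and 9.99. The difference was -0.15 (SE 0.05), without overlap at any single time point. CENPE, a kinetochore motor, also differed by -0.15 (SE 0.09), and its interval included 0. Without silymarin replicate 2 at 24 h it was at -0.073. Of 28 genes of the G1/S step and DNA replication, 21 were above 0, with a median of 0.06. At 4 h 8 of the 28 were above 0, with a median of -0.01, and without silymarin replicate 3 at 24 h the pooled median was 0.01. CCNE1, a cyclin of this step, differed by -0.14 (SE 0.08), and by -0.081 without silymarin replicate 2 at 24 h. CDC6, which licenses replication origins, differed by 0.23 (SE 0.06), and CCND3, a G1 cyclin, by -0.19 (SE 0.05).

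Nutrient and drug response genes were mixed. Of 23 brakes of mTOR and starvation genes 9 were above 0, with a median of -0.04 (-0.01 without DMSO replicate 3 at 4 h). PDK4, which spares glucose in fasting, differed by -0.21 (SE 0.05), and by -0.20 (SE 0.07) in the high arrays. GABARAPL1, an autophagy gene, differed by -0.16 (SE 0.05). Of 22 aryl hydrocarbon receptor targets and drug metabolism genes 15 were above 0, with a median of 0.04 and 4 at an unadjusted p under 0.05 in this direction. That median was 0.03 without silymarin replicate 4 at 4 h, but 0.09 without DMSO replicate 2 at 4 h. NQO1, a quinone reductase, was 8.93 to 9.20 in silymarin and 8.61 to 9.13 in DMSO, a difference of 0.22 (SE 0.07). CYP3A4, a drug-oxidizing enzyme, differed by 0.35 (SE 0.11) at a low level of 4.96. CYP1A1, the classical target of the aryl hydrocarbon receptor, differed by -0.01 (SE 0.20). NRF2 antioxidant targets, on which plant polyphenols are often tested, were above 0 in 11 of 21 cases, with a median of 0.01.

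**Figure D4:**
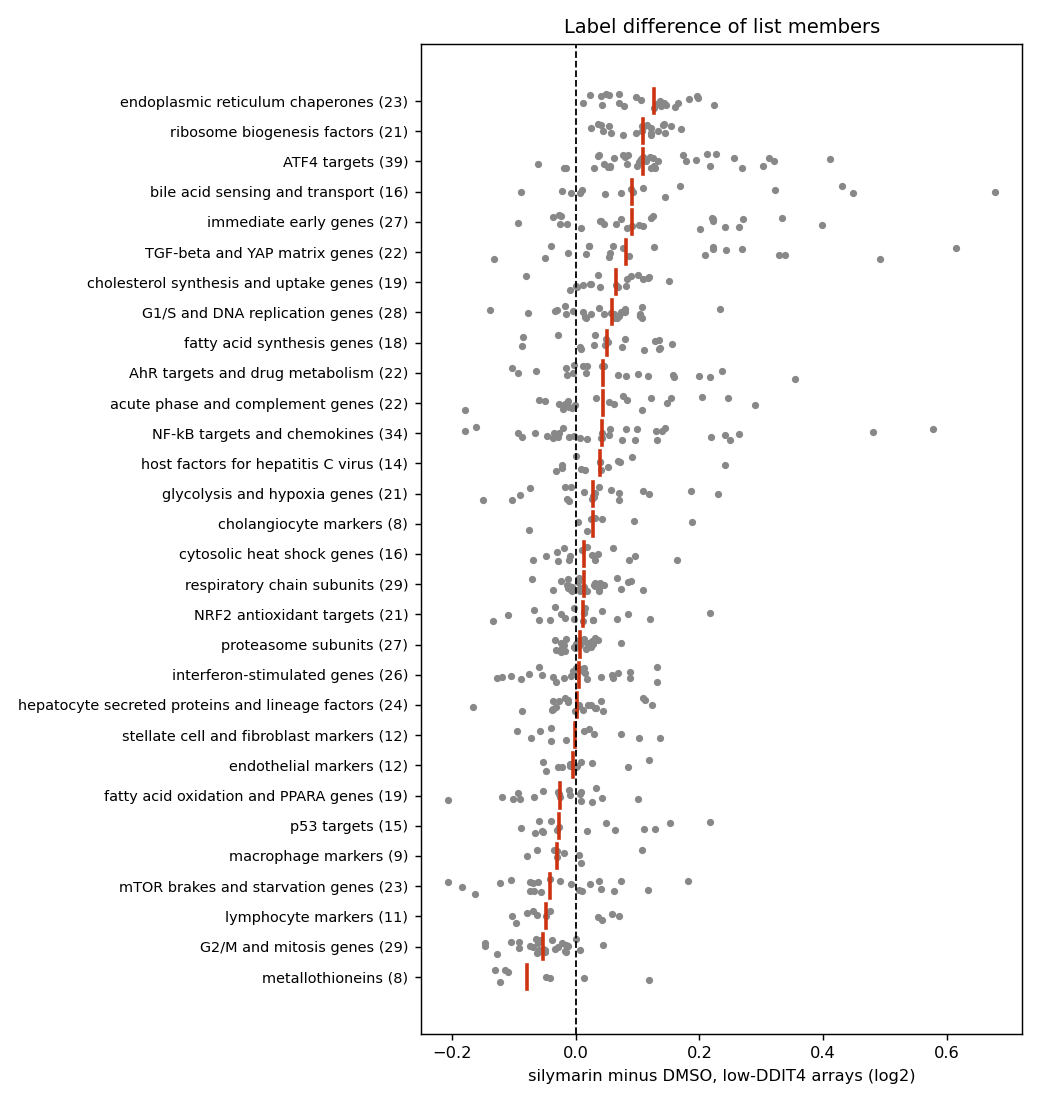
Label difference (silymarin minus DMSO, log2) of each measured member of 30 gene lists in the low arrays, with the list median as a bar and the number of members in brackets. All members of the ER chaperone and ribosome biogenesis lists lie above 0, and 3 of 29 mitosis genes do.

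The remaining lists had medians between -0.08 and 0.09. Cholesterol synthesis and uptake genes had 17 of 19 members above 0 (median 0.06) and fatty acid synthesis genes 15 of 18 (median 0.05), while fatty acid oxidation genes had 7 of 19 (median -0.02). Immediate early genes had 21 of 27 (median 0.09), and TGF-beta and YAP matrix genes 18 of 22 (median 0.08, but -0.18 at 8 h). The TGF-beta and YAP median was 0.05 without silymarin replicate 2 at 24 h, but 0.18 without silymarin replicate 2 at 8 h. Metallothioneins had 2 of 8 (median -0.08), with -0.13 without DMSO replicate 3 at 4 h, but -0.01 without silymarin replicate 3 at 24 h. Proteasome subunits had 17 of 27 (median 0.01) and respiratory chain subunits 19 of 29 (median 0.01). Glycolysis and hypoxia genes had 13 of 21 (median 0.03), p53 targets 7 of 15 (median -0.03) and cytosolic heat shock genes 9 of 16 (median 0.01). The p53 median was -0.04 without silymarin replicate 2 at 8 h, but 0.03 without silymarin replicate 2 at 24 h. Without silymarin replicate 3 at 24 h, the median was 0.03 for cholesterol genes, 0.03 for fatty acid synthesis, 0.01 for glycolysis and hypoxia, and 0.02 for the virus host factors. Medians of proteasome, respiratory chain and heat shock genes lay on either side of 0 when each array was left out in turn. Host factors of hepatitis C virus had 11 of 14 (median 0.04). Marker lists of endothelial, stellate, macrophage, lymphocyte and cholangiocyte cells had medians between -0.05 and 0.03.

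Across all 18274 genes, the label differences of the low and high arrays were hardly related. Pearson's r was 0.0566 and Spearman's rho -0.0195, a description across genes, which are not independent replicates. In the high arrays limma called 0 genes as well, with 992 at an unadjusted p under 0.05. ATF4 targets and ER chaperones had their higher means in silymarin in the low arrays, and the NF-kB list in the high arrays. Among the high arrays, DMSO replicates 1 at 4 h, 1 at 8 h and 4 at 8 h were lowest for CXCL10. The same arrays were lowest there for CXCL8, CCL20, HP, SLC6A14, AADAC and SERPINA7. How far the label differences of the high arrays rest on them was not tested. The shift between the sets was not called for any gene, and a p that misses the threshold does not show that the label acted alike in both.

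**Figure D5:**
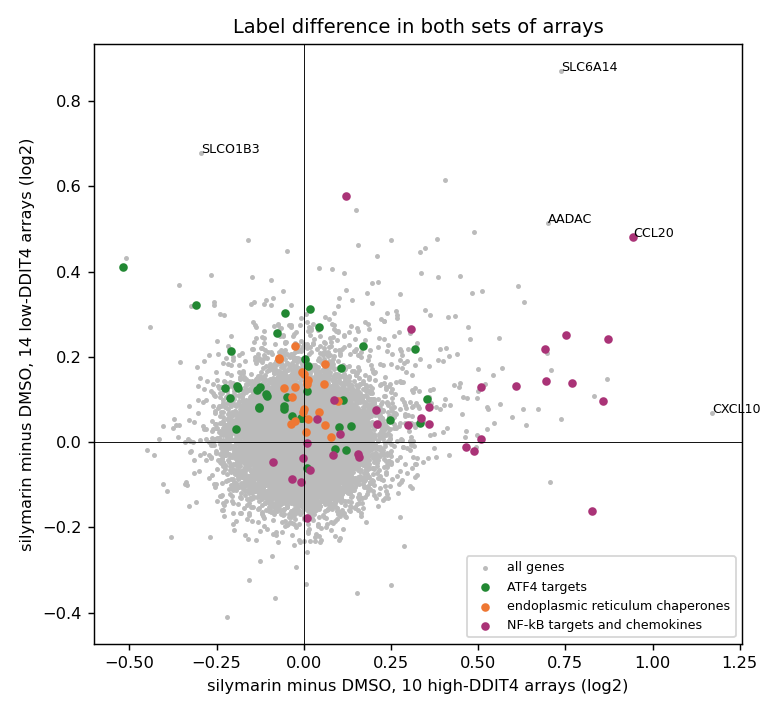
Label difference (silymarin minus DMSO, log2) of each gene in the 14 low arrays against that in the 10 high arrays, with 3 lists in colour. NF-kB targets spread along the horizontal axis, ER chaperones lie above the horizontal line, and SLCO1B3 has opposite signs in the 2 sets.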

How the data were processed

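The deposited values are on the log2 scale, and the authors used RMA in oligo, per the submitters' processing notes, with no version named. RMA corrects background, normalizes by quantiles over arrays and summarises probes, so values depend on all 24 arrays. No genome build is given in the sources used here. Of 28869 probe sets, 19302 had 1 gene symbol, 1729 had several and 7838 were not listed; the brightest probe set of each gene was kept, which left 18274 genes.

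limma 3.58.1 in R 4.3.3 (lmFit, eBayes) was fitted to the 14 low arrays with time point and label (10 residual, 5.64 prior degrees of freedom). Time points were compared in a fit of 6 group means, and low with high arrays in a fit of all 24. Tests were two-sided with Benjamini-Hochberg adjustment over all genes, and intervals are 95% confidence intervals. Of 680 entries in 30 lists, 615 were measured. The arrays, lists and named genes were chosen with earlier results of these data known. Named genes were the 10 with the smallest unadjusted p in each direction among genes at or above the median level, since none was called, the 2 with the smallest p per list, the 5 largest without overlap per direction, 12 genes named earlier, and the 10 largest differences per direction, the last added after seeing the data. Other list members were named for their role after their values were seen. The main fit did not pair samples by replicate number. Scaling, filters, probe set rules, model settings, the DDIT4 limit, time points and single arrays were varied. Scripts were tested on simulated data. Figures used matplotlib 3.10.9 in Python 3.11.15. Promoters came from RefSeq.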

Additional observations from a re-analysis of the deposited data

Results flagged for a closer look

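Of 108 genes checked, 5 (4.63%) had 1 array far from the other 3 in the DMSO group at 24 h, the only group of 4 arrays; chance alone marks about 1 in 20 groups in this way. Replicate 1 was the array apart in 4 of the 5 genes. IER3, an immediate early gene, was 8.87 there against 9.53 to 9.64. The death receptor TNFRSF10B was 9.84 against 10.19 to 10.22, the metallothionein MT1F 11.88 against 11.99 to 12.01, and the proteasome subunit PSMD12 10.78 against 10.65 to 10.66. EGLN3, an oxygen-sensing hydroxylase, was 8.59 in replicate 2 against 8.21 to 8.27.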

How the results depend on the processing

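limma called 0 genes for the pooled label difference in all 23 other settings and with each of 14 arrays left out, and 0 for the time point, interaction and low against high contrasts in theirs. Whether replicate numbers shared between labels pair the samples was not settled. In 4 shared pairs, correlations of deviations from time and label ran from -0.12 to 0.09. By distance between whole profiles, DMSO and silymarin replicate 2 were nearest to each other at 8 h (0.131) and at 24 h (0.158). DMSO replicate 2 at 4 h was nearest to silymarin replicate 2 at 4 h (0.148). DMSO replicate 3 at 4 h was nearest to DMSO replicate 4 at 24 h (0.134). With the replicate number as a block limma called 0 genes, and 0 with number within time point as the block.

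The count of genes with no overlap, 74, was 39 with dim genes left out, 1874 with a DDIT4 limit of 8.0, 600, 213 and 1176 without 4, 8 or 24 h, and 90 to 445 with 1 array left out. With fewer arrays, fewer conditions had to be met, and the limit of 8.0 left no silymarin array at 24 h. The label's share of variation of 7.29% was 11.7% at the limit of 8.0, 10.8%, 11.2% and 10.6% without 4, 8 or 24 h, and 5.90% to 9.26% with 1 array left out.

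Of 107 named genes, 96 kept their sign in every setting. Most were named for their values in these same arrays, which the settings use again, so this count says little about stability. The limit of 8.0 left no silymarin array at 24 h. At this limit, signs turned for SREBF1 (-0.0057), TEK (-0.0366), KRT23 (-0.0386), IL18 (-0.14), ANXA1 (-0.0935), LIMD1-AS1 (0.15) and ULBP2 (0.0562). Without 4 h they turned for PSMD12 (-0.0024), CXCL10 (-0.38), CXCL8 (-0.0715) and HP (-0.0782), and without 24 h for TEK (-0.0429) and ULBP2 (0.00018). CXCL10 was -0.0143 with array weights and -0.10 to 0.29 with 1 array left out, and PSMD12 was -0.0011 to 0.0600. The cause was not tested.

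The median of ER chaperones was 0.07 over all 24 arrays with the DDIT4 state as a term, and of ATF4 targets 0.04.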
